A study of Mus musculus with 2 samples.

Results

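Amino acid transporters are membrane proteins that carry amino acids, and in some cases related small molecules, across the plasma membrane or the membranes of organelles. They were taken here by name, as the protein-coding genes of the mouse Slc1a, Slc3a, Slc6a, Slc7a, Slc36a, Slc38a and Slc43a families, and the level of each was the sum of its RefSeq transcripts. The names gave 63 of 20246 protein-coding genes. Slc7a6os, which takes its name from its neighbour Slc7a6 and encodes no transporter (19.6 FPKM in pre-pro-B and 17.6 FPKM in pro-B cells), was set apart, which left 62 transporter genes with 92 transcripts. FPKM are fragments per kilobase of transcript, scaled to the reads mapped in the library, so that levels can be compared between genes.

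Steady state RNA was measured in 2 cell types of early mouse B cell development, both on the C57BL/6 background, with 1 library each. Pre-pro-B cells were Ebf1 -/- cells derived from the livers of female fetuses, and pro-B cells were Rag2 -/- cells derived from the bone marrow of male adults. Both were grown on OP-9 stromal cells with Il-7 (5 ng/mL), and the pre-pro-B cells alone also received Scf (10 ng/mL) and Flt3l (10 ng/mL). Total RNA depleted of ribosomal and small RNA was sequenced with strand-specific, single-end reads of 97 bases to a nominal 90 M reads per library. Cell type cannot be told apart from genotype, sex, age, tissue of origin or cytokines, and whether the cultures were clones or pools of animals is not given in the sources used here. With 1 library per group there is no replicate spread and no test. Values are given with Cuffdiff's 95% intervals where they matter, and fewer cells of a type cannot be told apart from less RNA per cell.

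Charged and polar amino acids cross lipid membranes slowly, so that growing cells depend on carriers. Sodium-coupled carriers of the Slc38, Slc1 and Slc6 families can concentrate their substrates, exchangers of the Slc7 family swap one amino acid for another, and several of these exchangers reach the surface only when bound to a heavy chain of the Slc3 family. When amino acids run short, the transcription factor Atf4 raises many of these genes through a composite C/EBP-ATF site, and carriers in the lysosome report amino acid supply to the kinase mTORC1.

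The core of that site was searched in RefSeq promoters of assembly GRCm38.p6, each from 250 bases before to 50 after an annotated start, as TGATGCAA and, more loosely, as TGATGNAA, on both strands. A promoter was given for 44 of the 62 transporters, 15 of them among the 21 with at least 1 FPKM in a library, and the search covered their 65 promoters. TGATGCAA was found in 4 of these (6.15%), belonging to Slc1a4, Slc7a11 and Slc7a7, against 0.895% of 32851 promoters of all genes. TGATGNAA, of which TGATGCAA is one form, was found in 5 (7.69%) against 3.97%, the added gene being Slc6a21. The matching stretches of the stricter form are shown because these 3 genes carry the sequence through which the amino acid response is known to act. Each is written 5′ to 3′ on the strand of its gene, the minus strand in all 3, with the site in capitals and its position on mm9.
Slc1a4 (chr11:20232702-20232731): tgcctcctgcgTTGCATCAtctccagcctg
Slc7a11 (chr3:50247574-50247603): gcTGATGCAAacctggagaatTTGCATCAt
Slc7a7 (chr14:55036764-55036793): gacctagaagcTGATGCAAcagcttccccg
Slc7a11 held 2 sites in opposite orientations within 68 to 39 bases before its start, and the stretches of Slc1a4 and Slc7a7 straddled an annotated start. For Slc7a7 that start lies upstream of the measured transcripts, whose locus ends at base 55036539. A match describes letters and not a bound site. At the RNA level, the 3 genes were low in both cell types. The level of Slc1a4 was 3.02 FPKM in pre-pro-B and 2.41 FPKM in pro-B cells, that of Slc7a7 1.5 and 0.308 FPKM, and that of Slc7a11, the cystine-glutamate exchanger xCT, 0.385 and 0.592 FPKM.

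The libraries carried the markers of their labels. All 9 B lineage genes examined were more than 2-fold higher in pro-B cells (summed FPKM 10.5 and 3784), and the 5 measured progenitor genes (of 6, Gata2 being listed at 0) were lower (1003 and 3.82). Ebf1 itself stood at 64.0 FPKM in the Ebf1 -/- cells and 273 FPKM in the pro-B cells, and Rag2 at 34.5 and 22.9 FPKM, so RNA was still counted over both targeted genes. Which exons the alleles lack is not given in the sources used here. Markers of other cell types also differed. Of 11 myeloid genes 5 had at least 1 FPKM and all 5 were lower in pro-B cells, with summed FPKM of 281 and 9.40, while Elane, Ctsg and S100a9 were listed at 0 in both. Of 6 T lineage genes 3 did, all lower in pro-B cells (81.9 and 3.13). For 4 megakaryocyte genes 3 did, 2 of them lower, and none of 6 erythroid genes reached 1 FPKM. Of 16 genes of stromal cells, the feeder layer, 10 reached 1 FPKM, 5 being higher and 1 lower in pro-B cells. Their sum was 22.8 and 25.7 FPKM, or 6.92 and 25.3 FPKM without Pdgfrb, and Dcn and Postn were listed at 0 in both.

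Most of the family was scarce or listed at 0 in both cell types. Among the 62 transporters, 23 were listed at 0 in both libraries, 18 were above 0 but under 1 FPKM in both, and 21 had at least 1 FPKM in one. The 18 low genes had maxima from 0.0155 FPKM (Slc6a5, a glycine transporter of neurons) to 0.719 FPKM (Slc6a9, the other glycine transporter). Of these, 3 were listed at 0 in the pre-pro-B library and 6 in the pro-B library. At the nominal depth 3 reads were worth 0.00288 to 0.0227 FPKM for the members listed at 0, depending on transcript length. Just under the level of 1 FPKM were Slc7a11 and Slc6a9, and just above it Slc7a7 (maximum 1.5 FPKM) and Slc6a19 (maximum 2.00 FPKM).

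**Figure D1:**
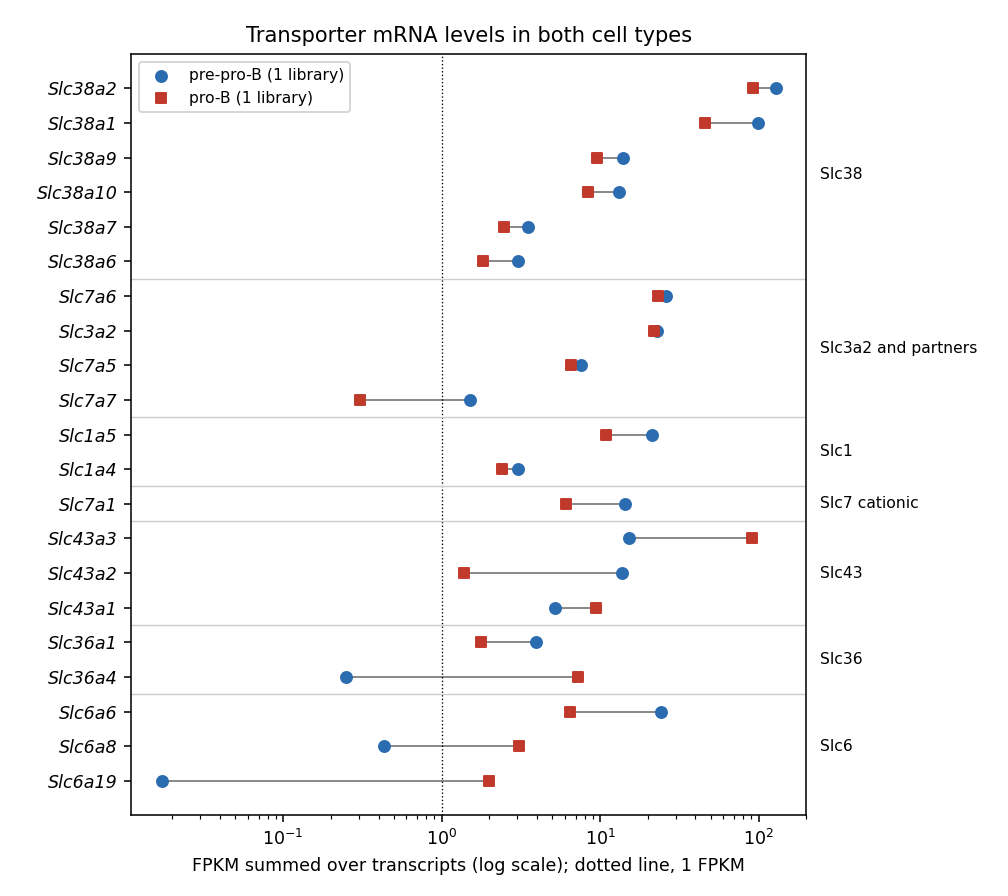
Steady state level of the 21 transporters with at least 1 FPKM in a library, as FPKM summed over transcripts on a log axis, grouped by role; circles are the pre-pro-B library and squares the pro-B library, and the dotted line is 1 FPKM. Slc38a2 and Slc38a1 lead in pre-pro-B cells (128 and 99.3 FPKM) and Slc38a2 and Slc43a3 in pro-B cells (92.5 and 90.9 FPKM).

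Between the cell types, a transporter was counted as higher or lower where its FPKM in the pro-B library, over that in the pre-pro-B library and with 1 added to each, changed by at least 2-fold. Of the 21 genes, 8 (38.1%) did so, against 31.3% of the 10525 protein-coding genes with at least 1 FPKM, a share near the background. Slc43a2, Slc6a6, Slc7a1 and Slc38a1 were lower in pro-B cells (4 genes, 19.0%, against 19.1% of all genes). Slc36a4, Slc43a3, Slc6a19 and Slc6a8 were higher (4 genes, 19.0%, against 12.2%). The remaining 13 lay within 2-fold. Of the higher genes, Slc36a4, Slc6a19 and Slc6a8 were under 1 FPKM in pre-pro-B cells and passed the filter only through the pro-B library, where they are high. With a filter at 5 FPKM, 4 of 14 transporters were lower and 2 higher, 42.9% in all against 29.1% of all genes at that filter. Most transporters leaned one way: 16 of the 21 (76.2%) had a log2 ratio below 0, against 57.4% of all genes, and the median log2 ratio was -0.47 against -0.14 over all genes. Without the filter at 1 FPKM this lean was smaller, with 24 of 39 genes below 0 and a median of -0.08 against -0.05. The genes this adds are under 1 FPKM, where a pseudocount of 1 draws log2 ratios toward 0. That smaller median is therefore partly set by the pseudocount. Of the 4 higher genes, 2 are known for other cargo than amino acids, Slc43a3 for purine nucleobases and Slc6a8 for creatine, and among the lower genes Slc6a6 is known for taurine.

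**Figure D2:**
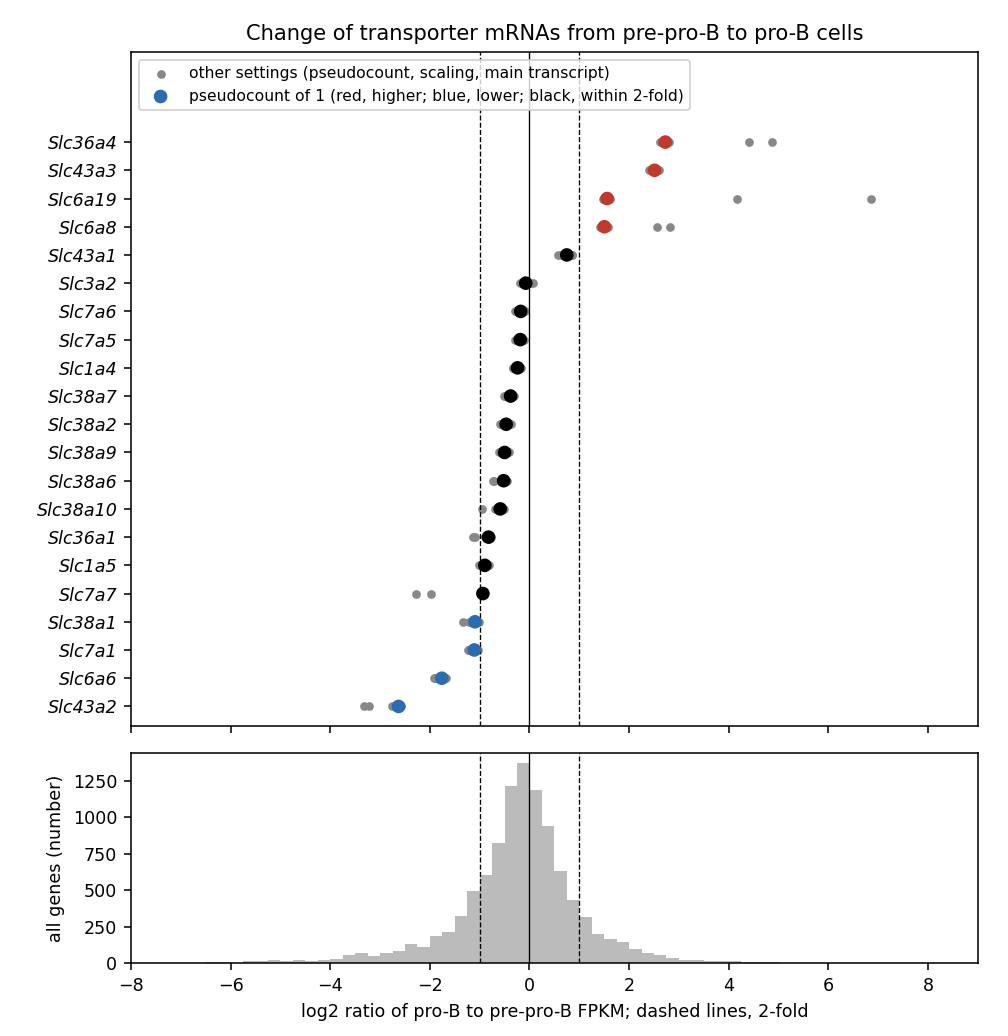
Log2 ratio of FPKM, pro-B over pre-pro-B, for the 21 transporters (upper panel, large points with a pseudocount of 1 and grey points with other pseudocounts, scalings or the main transcript alone; red is higher, blue lower and black within 2-fold) and the number of all protein-coding genes at each ratio (lower panel). Dashed lines mark 2-fold, and 4 transporters lie to the right of them and 4 to the left, with 16 of 21 below 0.

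The sodium-coupled neutral carriers of the Slc38 family gave 61.7% of the summed transporter FPKM in the pre-pro-B library and 45.1% in the pro-B library. Of 11 genes 6 had at least 1 FPKM, and all 6 had their higher value in pre-pro-B cells, against 57.4% of all genes. Of the 6, 1 passed 2-fold (16.7%, against 31.3% of all genes). Slc38a2 (SNAT2, a carrier of glutamine, alanine and other small neutral amino acids, chr15:96517823-96530129) was the most abundant transporter in both libraries. Its level was 128 FPKM in pre-pro-B cells, with a 95% interval of 27.6 to 228, and 92.5 FPKM in pro-B cells (20.5 to 163), for a log2 ratio of -0.47. Slc38a1 (SNAT1, a close relative with similar cargo, chr15:96401849-96473344), which lies beside it on the chromosome, stood at 99.3 FPKM in pre-pro-B cells and 46.0 FPKM in pro-B cells, 2.16-fold lower. Both neighbours had their higher value in pre-pro-B cells. Slc38a1 passed 2-fold only narrowly, with a log2 ratio of -1.09, or -1.01 when pro-B was rescaled by the median ratio. The intervals of its main transcript, 1.11 to 127 and 0.279 to 51.1 FPKM, overlapped.

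The lysosomal members of the Slc38 family were at lower levels. Slc38a9, which senses arginine in the lysosome for mTORC1 (chr13:113450974-113528960), had 14.0 FPKM in pre-pro-B cells (3.15 to 24.8) and 9.59 FPKM in pro-B cells (2.05 to 17.1). Slc38a7, which exports glutamine and asparagine from the lysosome, had 3.53 and 2.48 FPKM. Both ratios lay within 2-fold. For Slc38a10 the values were 13.1 and 8.37 FPKM, and for Slc38a6 3.05 and 1.82 FPKM.

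The heavy chain Slc3a2 and its main partners had like levels in both libraries. Of the 12 genes of exchangers and heavy chains, 4 had at least 1 FPKM and none passed 2-fold, against 31.3% of all genes. Slc3a2 (the CD98 heavy chain, chr19:8781372-8797859) stood at 23.0 FPKM in pre-pro-B and 21.8 FPKM in pro-B cells (log2 ratio -0.08). Its main transcript had intervals of 0.565 to 41.5 and 1.19 to 41.9 FPKM. Its most abundant light chain was not the leucine carrier Slc7a5 but Slc7a6 (y+LAT2, which exchanges cationic for neutral amino acids, chr8:108692775-108722604), with 26.2 FPKM in pre-pro-B cells (5.82 to 46.7) and 23.1 FPKM in pro-B cells (5.03 to 41.2). Slc7a5 (LAT1, chr8:124405046-124431586) had 7.62 FPKM (0.697 to 14.6) and 6.58 FPKM (0.202 to 13.2). Slc7a6 thus gave 73.1% of the summed FPKM of the 6 light chains in the pre-pro-B library and 75.4% in the pro-B library, and Slc7a5 21.2% and 21.5%. The light chains together had 35.9 and 30.6 FPKM, which was 1.56 and 1.41 FPKM for each FPKM of Slc3a2. The make-up of the pool of exchangers therefore differed little between the libraries, in RNA.

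Slc7a7 (y+LAT1, the close relative of Slc7a6, chr14:54980525-55036539) had 1.5 FPKM in pre-pro-B and 0.308 FPKM in pro-B cells. Its log2 ratio of -0.94 with a pseudocount of 1 lay just within 2-fold, and with a pseudocount of 0.1 it was -1.97. The intervals of its main transcript, 0 to 5.83 and 0 to 1.19 FPKM, overlapped. Among the light chains under 1 FPKM in both libraries, Slc7a8 (LAT2, a carrier of neutral amino acids, chr14:55341052-55400723) had 0.166 FPKM (0 to 0.441) and 0.0477 FPKM (0 to 0.147). Slc7a11 (chr3:50168858-50247535), whose levels stand with its promoter sequence above, had intervals of 0 to 0.792 and 0 to 1.19 FPKM, and Slc7a10 was listed at 0 in both. Slc3a1, the heavy chain of the kidney cystine carrier, stayed under 1 FPKM in both libraries (0.437 and 0.585).

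The Slc1 family holds the glutamate transporters of brain and the ASC exchangers of small neutral amino acids. Only the ASC exchangers Slc1a5 and Slc1a4 reached 1 FPKM, of 7 genes. Slc1a5 (ASCT2, a glutamine exchanger of proliferating cells, chr7:17366695-17383623) had 21.2 FPKM in pre-pro-B cells (3.67 to 38.7) and 10.9 FPKM in pro-B cells (0.931 to 20.9). Its log2 ratio of -0.90 lay within 2-fold with the libraries as deposited and at -1.01 when each was rescaled to TPM. Slc1a4 (ASCT1) had a log2 ratio of -0.24.

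Among the 5 uniporters of cationic amino acids, Slc7a1 (CAT1, the main carrier of arginine and lysine in most cells, chr5:149138986-149211480) alone reached 1 FPKM. It was 2.34-fold lower in pro-B cells, at 14.3 FPKM in pre-pro-B (2.85 to 25.8) and 6.11 FPKM in pro-B cells (0.649 to 11.6).

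Of the 3 genes of the Slc43 family, 1 was higher, 1 lower and 1 within 2-fold. Slc43a3 (chr2:84776803-84798666), which carries purine nucleobases such as adenine, was 6.01-fold higher in pro-B cells, at 15.1 FPKM in pre-pro-B (1.28 to 29.1) and 90.9 FPKM in pro-B cells (16.9 to 165). Slc43a2 (LAT4, a facilitated carrier of branched-chain amino acids, phenylalanine and methionine, chr11:75345196-75391074) was 9.94-fold lower, at 13.7 and 1.38 FPKM. Its main transcript in pre-pro-B cells, NM_173388, had intervals of 0.182 to 19.6 and 0 to 1.64 FPKM. Slc43a1 (LAT3, its relative with similar cargo, chr2:84679565-84703743) lies next to Slc43a3 and had 5.18 and 9.39 FPKM, a log2 ratio of 0.75. The sum of LAT4 and LAT3 RNA was thus led by Slc43a2 in pre-pro-B cells and by Slc43a1 in pro-B cells.

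In the proton-coupled Slc36 family, 2 of 4 genes reached 1 FPKM. Slc36a4 (PAT4, a high-affinity carrier of proline and tryptophan, chr9:15514213-15543233) had the largest log2 ratio among the transporters with a pseudocount of 1, 2.73. Its level was 0.249 FPKM in pre-pro-B cells (0 to 0.530), near 43.4 reads at the nominal depth, and 7.27 FPKM in pro-B cells (0.510 to 14.0), near 1267 reads. Slc36a1 (PAT1, which exports small amino acids from lysosomes) had 3.93 and 1.79 FPKM, a log2 ratio of -0.82, and -1.09 with a pseudocount of 0.1. So the genes of the family that were expressed leaned in opposite directions.

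Of the 20 Slc6 genes, most of which are known from neurons or epithelia, 3 reached 1 FPKM, and all 3 passed 2-fold. Over all genes this share was 31.3%, and with 3 genes no family trait is read from the count. Slc6a6 (TauT, the taurine transporter, chr6:91634061-91709057) was 3.76-fold lower in pro-B cells, at 24.4 FPKM in pre-pro-B (2.82 to 46.0) and 6.50 FPKM in pro-B cells (0.346 to 12.8). Slc6a8 (the creatine transporter, chrX:70918472-70927839) was 7.04-fold higher, at 0.436 FPKM (0 to 1.25) and 3.07 FPKM (0.0231 to 7.29). Slc6a19 (B0AT1, the neutral amino acid carrier of intestine and kidney, chr13:73818605-73847304) had 0.0171 FPKM in pre-pro-B cells (0 to 0.0571) and 2.00 FPKM in pro-B cells (0 to 5.32). The first of these values is worth about 3.76 reads at the nominal depth, so no fold is given for Slc6a19, and its pro-B interval begins at 0. Beside these higher genes stand the stromal markers given above. Of the 10 with at least 1 FPKM, 5 were also higher in pro-B cells, 1 (Pdgfrb) was lower and 4 lay within 2-fold. Beside the lower genes stand the progenitor, myeloid and T lineage markers, which were lower. Their part in the transporter values was not tested.

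Cuffdiff's intervals are the only error deposited with each value, and by them the libraries did not separate for any transporter. Of 25 transporter transcripts with at least 1 FPKM in a library, 0 had intervals that did not overlap, against 4.41% of 12731 protein-coding transcripts at that level. At that share few of 25 would be expected, so no trait of transporters is read from the count. Among transporter transcripts with at least 5 FPKM it was 0 of 16, for which no share over all transcripts is given. The overlap was narrow for Slc36a4, whose pre-pro-B interval ended at 0.530 FPKM and whose pro-B interval began at 0.510 FPKM. For Slc43a3 it ran from 16.9 to 29.1 FPKM. These intervals come from a model that takes its spread from the pair of libraries, not from replicates.

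**Figure D3:**
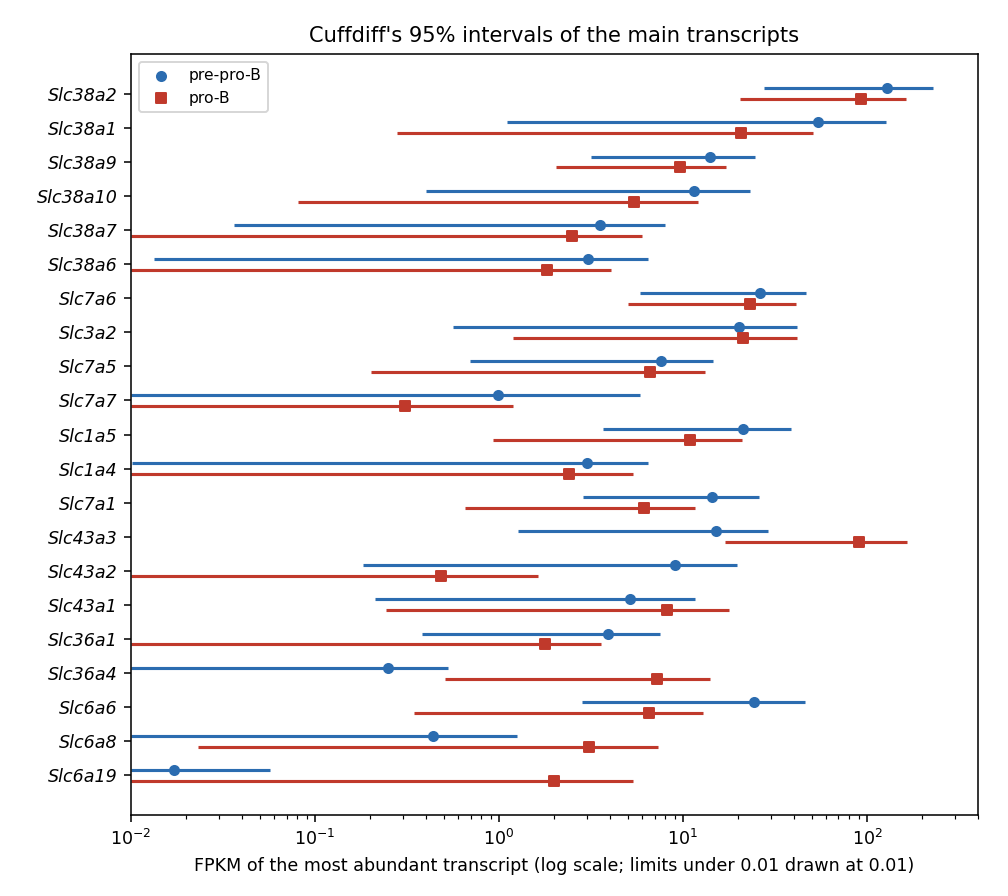
FPKM of the most abundant transcript of each of the 21 transporters with Cuffdiff's 95% interval as a line, on a log axis with limits under 0.01 FPKM drawn at 0.01; circles are pre-pro-B and squares pro-B. The 2 intervals overlap for every gene shown, narrowly for Slc36a4 (0.530 against 0.510 FPKM).

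Of the transporters with several transcripts, 5 had at least 1 FPKM in both libraries, and in 1 of these, Slc43a2, the most abundant transcript differed between them, against 17.1% of 2046 such genes overall. For Slc43a2, NM_173388 had 9.02 FPKM in pre-pro-B and 0.485 FPKM in pro-B cells, or 65.7% and 35.2% of the gene. NM_001199283 had 3.96 and 0.895 FPKM, or 28.9% and 64.8%. In pro-B cells the intervals of the pair, 0 to 2.42 FPKM for NM_001199283 and 0 to 1.64 FPKM for NM_173388, overlapped and both began at 0, so their order there is uncertain. The total was lower for each, so the larger share of NM_001199283 is a share of a smaller level. In Slc38a1, the leading transcript NM_001166456 gave 54.3% and 45.1% of the gene (53.9 FPKM with an interval of 1.11 to 127, and 20.8 FPKM with 0.279 to 51.1). NM_001166456 of Slc38a1 remained first in both. NM_001164799 of Slc38a10 gave 88.0% and 65.0%, NM_008577 of Slc3a2 87.2% and 97.2%, and NM_024497 of Slc43a1 100% and 87.3%. How Cuffdiff divides reads among transcripts that share exons sets these shares.

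**Figure D4:**
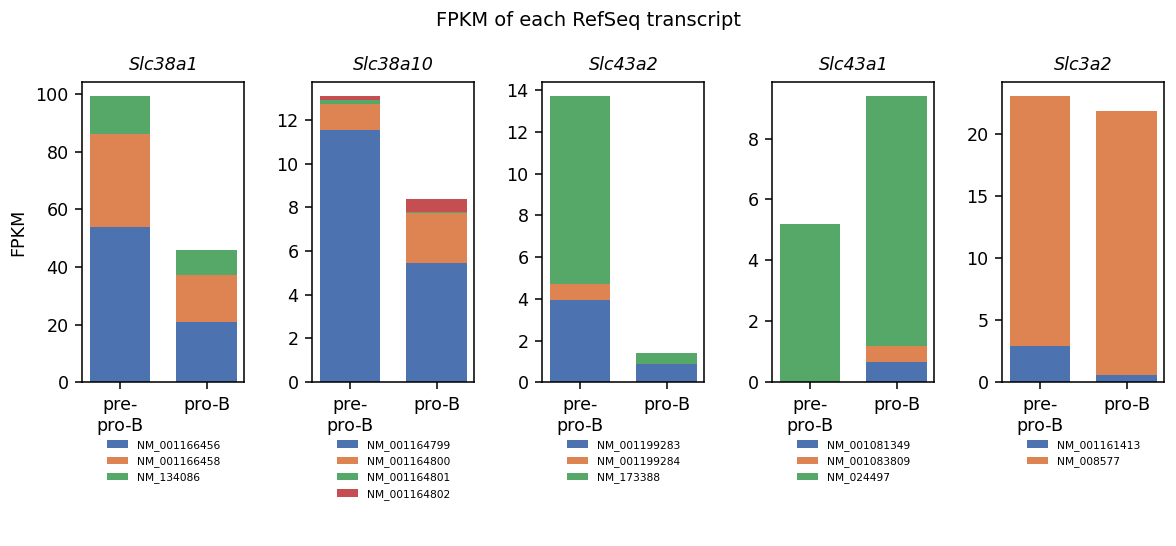
FPKM of each RefSeq transcript, stacked to the gene's sum, for the 5 transporters with several transcripts and at least 1 FPKM in both libraries; transcripts under 0.01 FPKM in both are not drawn. In Slc43a2 NM_173388 is the larger part in pre-pro-B cells (65.7%) and NM_001199283 in pro-B cells (64.8%).

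Summed over the 62 genes, transporter RNA was 424 FPKM in pre-pro-B and 357 FPKM in pro-B cells, 15.7% lower on this scale. A single gene decided that size: without Slc43a3 the sums were 408 and 266 FPKM, 34.8% lower. Rescaled to TPM over protein-coding genes, which gives every library the same total, the transporters held 1364 and 1058. Slc38a1 and Slc38a2 together were 53.8% of the sum in pre-pro-B and 38.8% in pro-B cells, while Slc43a3 was 3.57% and 25.5%. The number of transporters with at least 1 FPKM was 18 and 20, and with at least 10 FPKM 11 and 6. The latter count depends on the cut, because Slc38a9 (9.59 FPKM), Slc43a1 (9.39 FPKM) and Slc38a10 (8.37 FPKM) lay just under it in pro-B cells. Slc38a9 and Slc38a10 were within 2-fold between the libraries, and Slc43a1 had its higher value in pro-B cells.

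**Figure D5:**
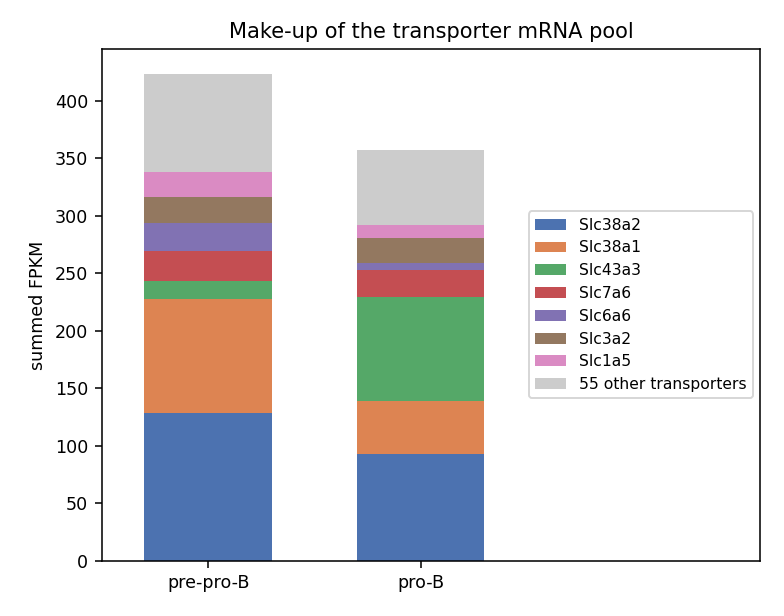
Summed FPKM of the 62 transporters in each library, stacked by gene for the 7 most abundant in pre-pro-B cells, with the 55 others in grey. The bars reach 424 and 357 FPKM, and Slc43a3 takes 3.57% of the first and 25.5% of the second.

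Genes around the transporters were read from 5 lists. In the amino acid response led by Atf4, 22 of 25 matched genes had at least 1 FPKM. Of these, 0 were lower and 5 (22.7%) higher in pro-B cells, against 19.1% and 12.2% of all genes, and 17 lay within 2-fold. The share past 2-fold in either direction, 22.7%, was below the 31.3% of all genes. The 3 largest were Cth (cystathionine gamma-lyase, which makes cysteine; 0.528 and 14.6 FPKM), Nupr1 (a stress-induced nuclear protein; 1.58 and 6.09 FPKM) and Asns (asparagine synthetase; 19.8 and 51.7 FPKM). Atf4 itself, named here after its values were seen, had 104 and 153 FPKM, within 2-fold. Of the transporters with a TGATGCAA promoter, Slc1a4 and Slc7a7 had log2 ratios of -0.24 and -0.94, both within 2-fold. Slc7a11 was under 1 FPKM in both libraries, with 0.385 FPKM in pre-pro-B and 0.592 FPKM in pro-B cells. Whether Atf4 acted on these genes here was not tested.

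Amino acid sensing by mTORC1 had 31 of 32 genes with at least 1 FPKM, of which 3 were lower and 2 higher. Rragd, a Rag GTPase that recruits mTORC1 to the lysosome, had 1.73 and 66.2 FPKM, and Mtor, the kinase, 9.59 and 34.8 FPKM. Fnip2, a partner of folliculin, had 8.21 and 0.0643 FPKM. The called share, 16.1%, was below the background of 31.3%, and 26 genes lay within 2-fold with a pseudocount of 1. Levels within that cut still differed for some of them, such as Deptor (0.173 and 1.04 FPKM), Tfeb (1.94 and 4.84 FPKM) and Nprl3 (4.24 and 2.04 FPKM).

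Of the enzymes that use glutamine, aspartate, arginine and branched-chain amino acids, 20 of 23 had at least 1 FPKM, with 2 lower and 5 higher in pro-B cells (35.0% in all, near the 31.3% of all genes). Bcat1, the cytosolic branched-chain aminotransferase, had 1.38 and 14.9 FPKM. Glul, glutamine synthetase, had 22.1 and 119 FPKM. Prodh, which breaks down proline, had 3.13 and 0.0122 FPKM. In cystine use and glutathione synthesis, 12 of 14 had at least 1 FPKM, with 1 lower and 2 higher (25% in all, against 31.3% of all genes). Gpx1 (glutathione peroxidase) had 391 and 47.9 FPKM, Gclc (the catalytic subunit of the first enzyme of glutathione synthesis) 14.6 and 73.3 FPKM, and Txn1 (thioredoxin) 137 and 334 FPKM.

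In a list of amino acid carriers and related membrane proteins of other families, not counted with the 62, more genes were lower than higher. Of 21 matched genes 15 had at least 1 FPKM, and 5 (33.3%) were lower and 2 (13.3%) higher in pro-B cells, against 19.1% and 12.2% of all genes. Slc16a10, the aromatic amino acid carrier TAT1, had 67.1 FPKM in pre-pro-B and 0.204 FPKM in pro-B cells. Slc25a13, a mitochondrial aspartate-glutamate carrier, had 21.0 and 0.191 FPKM. Cln3, a lysosomal membrane protein, had 8.74 and 0.691 FPKM.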

How the data were processed

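RNA was measured in 2 libraries, 1 per cell type. Per the labels' processing notes, the authors used TopHat 1.5 and Cuffdiff 2.1.1 with mm9, and deposited FPKM per RefSeq transcript with a 95% interval for each library. The authors' table of differential expression, which holds their fold changes, test statistics, p-values and q-values, was not used. Of 26968 protein-coding transcripts, 26551 were given a symbol by a RefSeq table of GRCm38.p6, used for names only, and FPKM were summed over each of 20246 genes. Coordinates are the deposited mm9 loci, from the first to the last base of a gene's transcripts.

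Genes with at least 1 FPKM in a library were compared on log2(FPKM + 1), which understates the change of low genes; a gene was counted at 2-fold. Every transporter with at least 1 FPKM is named, with locus and interval for the 8 largest changes, the 8 highest levels and the partners of Slc3a2 above 0, and the 3 largest changes are named for each other list. The members and lists were chosen with earlier results of these data known, and Slc6a21 was assigned its role once the values were at hand. FPKM carry no counts, so read numbers are approximations from transcript length and the nominal 90 M reads; they cover counting error only. Alternatives were other pseudocounts, filters, folds, scalings (TPM, median ratio) and transcript choices. Computations ran in Python 3.11.15 with pandas 2.3.3 and numpy 2.4.6, and figures with matplotlib 3.10.9. The 2-fold calls were tested on simulated data with little noise and with changes placed only in genes of at least 10 FPKM. That test covers neither changes of low genes nor the real spread between libraries.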

Additional observations from a re-analysis of the deposited data

How the results depend on the processing

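The count of 8 transporters past 2-fold was 10 with a pseudocount of 0.1 (47.6% against 36.3% of all genes) or none (47.6% against 35.2%). It was 9 on the TPM scale (42.9% against 31.9%) and 8 with the median ratio (38.1% against 31.4%). The main transcript alone gave 8 of 20 (40% against 32.3%), and no filter 8 of 39 genes above 0 (20.5% against 22.9%). At 5 FPKM 6 of 14 passed (42.9% against 29.1%). The count moved to 5 when only the 14 genes with a single transcript were read (35.7% against 30.9%). It moved to 13 at 1.5-fold (61.9% against 49.9%) and to 4 at 3-fold (19.0% against 17.2%). TPM shifted log2 ratios taken without a pseudocount by -0.12 and the median ratio by 0.09, and with a pseudocount low genes shifted less. The median log2 ratio ranged from -0.59 (TPM) to -0.08 (no filter, against -0.05 over all genes, with 24 of 39 transporters below 0). Across the 5 settings of pseudocount, scaling and main transcript, 18 of 21 genes kept their side of 2-fold; the exceptions were Slc36a1 and Slc7a7, which passed it with a pseudocount of 0.1 or none, and Slc1a5 on the TPM scale. No paired analysis was possible because each cell type has 1 library, and none could be left out. With 1 library each and no counts deposited, depth limits the reading of genes under 1 FPKM.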

Other observations

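Slc36a1os, a non-coding transcript named for its place opposite Slc36a1, had 0.0159 FPKM in pre-pro-B cells and was listed at 0 in pro-B cells, under the 0.0186 FPKM that 3 reads would be worth for it at the nominal depth.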
